A study of Mus musculus with 2 samples.

Results

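The 10 genes described here are 6 glutathione transferases (Gstm1, Gstm2, Gstm3, Gsta1, Gsta4 and Gstp1) and 4 further genes known as targets of the transcription factor NRF2 (Gclc, Gclm, Nqo1 and Srxn1). They were chosen by symbol, and all 10 were found among the 32285 gene features that the matrices of both libraries share. The rule names the genes and uses no measured value, but the list was drawn up with earlier results of these data known. The level of a gene in a group of cells is its unique molecular identifiers (UMIs, 1 per captured transcript molecule) per 10,000 UMIs of those cells, summed over the cells.

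The data are 2 droplet libraries of mouse liver cells (10x Chromium, 3′ v3 chemistry), made to compare hepatocytes, liver progenitor-like cells of the injured liver and cells of a liver tumour model. All mice were of the strain C57BL/6J;129S6/SvEvTac, and the cells came from perfused livers and carry the label hepatocytes. The DDC library joined WT mice on normal diet (day 0) with Sox9-EGFP mice after 2 weeks of DDC, a diet that injures bile ducts. The DDC and cMet library joined WT mice on normal diet (day 0) with Sox9-CreERT2:Rosa26-mTmG mice after 5 months of DDC diet and cMet delivered through HTVi. Each time point had 2 mice, whose cells share a library and cannot be assigned to a mouse or a time from the barcodes. Every library is therefore a mixture of untreated and treated cells and counts as 1 sample, so that library and condition cannot be told apart and no p-value or standard error is given.

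In the DDC library 2903 of 8694 barcodes passed the cell filter (at least 500 genes, at least 2000 UMIs, at most 30% mitochondrial UMIs), with a median of 29588 UMIs. In the DDC and cMet library 8099 of 18316 passed, with a median of 13215 UMIs. Only 4 passing barcodes occurred in both. Both libraries carried Y-linked RNA and almost no Xist RNA: no Alb-high cell with at least 10000 UMIs had Xist RNA without Y-linked RNA. Cells under set levels of 6 lists of non-parenchymal markers are called epithelial. Alb-high cells, epithelial cells with at least 50 albumin UMIs per 10,000, numbered 1886 (median 38069.5 UMIs) and 4929 (median 22951). They held all 8 hepatocyte markers, with summed levels of 552 and 771 UMIs per 10,000, while macrophage markers summed to 0.824 and 1.40. Brackets give 95% intervals for counting error alone. A gene is called higher or lower when its level differs at least 2-fold and at least 50 UMIs were counted over both groups.

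Glutathione transferases join the tripeptide glutathione to electrophiles, such as drug metabolites and products of lipid peroxidation, so that the cell can export them. The mu (Gstm), alpha (Gsta) and pi (Gstp) classes are abundant in the liver. NRF2, encoded by Nfe2l2, is held back by KEAP1; under oxidative or electrophilic stress it escapes, pairs with small MAF proteins and binds antioxidant response elements. Among its known targets, Gclc and Gclm encode the catalytic and modifier subunits of glutamate-cysteine ligase, the rate-limiting enzyme of glutathione synthesis. Nqo1 encodes a quinone reductase, and Srxn1 encodes sulfiredoxin, which restores over-oxidized peroxiredoxins.

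In the mm10 annotation (GENCODE vM21) the mu genes lie side by side on the minus strand, Gstm3 at chr3:107963696-107969283, Gstm2 at chr3:107981702-107986453 and Gstm1 at chr3:108012255-108017973. Gsta4 (chr9:78182774-78209349) and Gsta1 (chr9:78230656-78242684) are neighbours on the plus strand. Gstp1 lies at chr19:4035407-4037985, Gclc at chr9:77754535-77794485, Gclm at chr3:122245557-122270732, Nqo1 at chr8:107388225-107403206 and Srxn1 at chr2:152105516-152111376. All are protein-coding. The mu, alpha and pi genes have close copies, among them Gsta2, Gstp2 and Gstp3, and how reads were divided within each family is uncertain.

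Promoters from RefSeq (GRCm38.p6, 250 bases before to 50 after each transcript start) were searched on both strands for the antioxidant response core TGANNNNGC, for its stricter form TGACNNNGC, and for TGANTCA, the site of AP-1 and MAF-type factors. A stricter match is also a core match, and a TGANTCA followed by GC is a core match too. Of 32851 windows, 41.3% held the core, 12.4% the stricter form and 7.81% TGANTCA. Windows were matched for 8 genes, all but Gsta4 and Gclc. The stretches below are those of the genes on which the results turn, with the match in capitals and positions counted from the transcript start. They are printed in the direction of the gene.
Srxn1, bases -45 to -37, chr2:152105464-152105502: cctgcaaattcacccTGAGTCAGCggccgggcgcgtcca
Srxn1, bases -102 to -96, chr2:152105407-152105443: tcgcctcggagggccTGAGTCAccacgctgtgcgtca
Gstp1, bases -74 to -66, chr19:4037963-4038001: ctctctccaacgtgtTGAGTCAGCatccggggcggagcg
Gclm, bases -134 to -126, chr3:122245408-122245446: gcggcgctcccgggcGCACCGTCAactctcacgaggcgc
Gsta1, bases -126 to -118, chr9:78230528-78230566: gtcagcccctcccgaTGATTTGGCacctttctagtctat
Gstm3, bases -223 to -215, chr3:107969374-107969412: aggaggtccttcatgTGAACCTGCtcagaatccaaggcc

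Srxn1 and Gstp1 share the run TGAGTCAGC, which matches both the core and TGANTCA. In Gclm the match GCACCGTCA is the stricter form read on the other strand. Srxn1 held 3 further core matches, 1 of them also the stricter form on the other strand, and Gstp1 held 2. Gstm3 held a second core match. The windows of Gstm1, Gstm2 and Nqo1 held none of the 3 motifs, which says only that these letters are not in these windows.

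Cells with more Sox9 reporter had less of several of these genes. In the DDC library epithelial cells were put into bins by EGFP: 1192 cells with no EGFP UMI, 470 under 1 per 10,000, 227 from 1 to under 3, and 187 with 3 or more. Gstm3, Gsta1, Srxn1, Gstm2 and Nqo1 were called lower in EGFP-high than in EGFP-zero cells and none was called higher. That is 5 of 10, beside 7.05% of 11759 genes called lower and 11.5% called higher. The median log2 ratio was -1.12 over the 10 genes and 0.27 over all genes.

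Among the mu transferases, Gstm3 stood at 6.70, 3.41, 2.64 and 0.850 UMIs per 10,000 from the EGFP-zero to the EGFP-high bin, a log2 ratio of -2.98 (-3.09 to -2.87). Gstm1 stood at 50.4, 44.3, 41.1 and 25.5, and its log2 ratio of -0.98 lay just short of the call. Gstm2 stood at 1.04, 0.569, 0.544 and 0.410, a log2 ratio of -1.34. By pooled level all 3 mu genes were lowest in the EGFP-high bin and highest in the EGFP-zero bin. The intervals of Gstm2 in the low and intermediate bins overlapped.

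The alpha transferases parted. Gsta1 stood at 3.69, 2.02, 1.58 and 0.492, a log2 ratio of -2.91 (-3.05 to -2.77). Gsta4, which acts on aldehydes from lipid peroxidation, stood at 1.35, 1.41, 1.29 and 1.27, with a log2 ratio of -0.09 (-0.18 to 0.01). Gsta4 therefore kept nearly 1 level where its neighbour on the chromosome was 7.50-fold lower. Gstp1 stood at 1.24, 1.21, 1.15 and 0.869, with a log2 ratio of -0.51.

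The subunits of glutamate-cysteine ligase parted as well. Gclc stood at 4.82, 4.16, 3.86 and 2.56, a log2 ratio of -0.91 (-0.98 to -0.85). Gclm stood at 4.65, 4.63, 4.83 and 4.77, a log2 ratio of 0.03 (-0.01 to 0.08). The modifier subunit thus stayed level over the bins while the catalytic subunit was 1.88-fold lower in the highest bin. Srxn1 stood at 1.20, 0.775, 0.660 and 0.327, a log2 ratio of -1.88 (-2.05 to -1.70). Nqo1 was sparse, at 0.200, 0.172, 0.131 and 0.0843, and its log2 ratio of -1.25 rests on 75 UMIs in the EGFP-high bin.

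**Figure D1:**
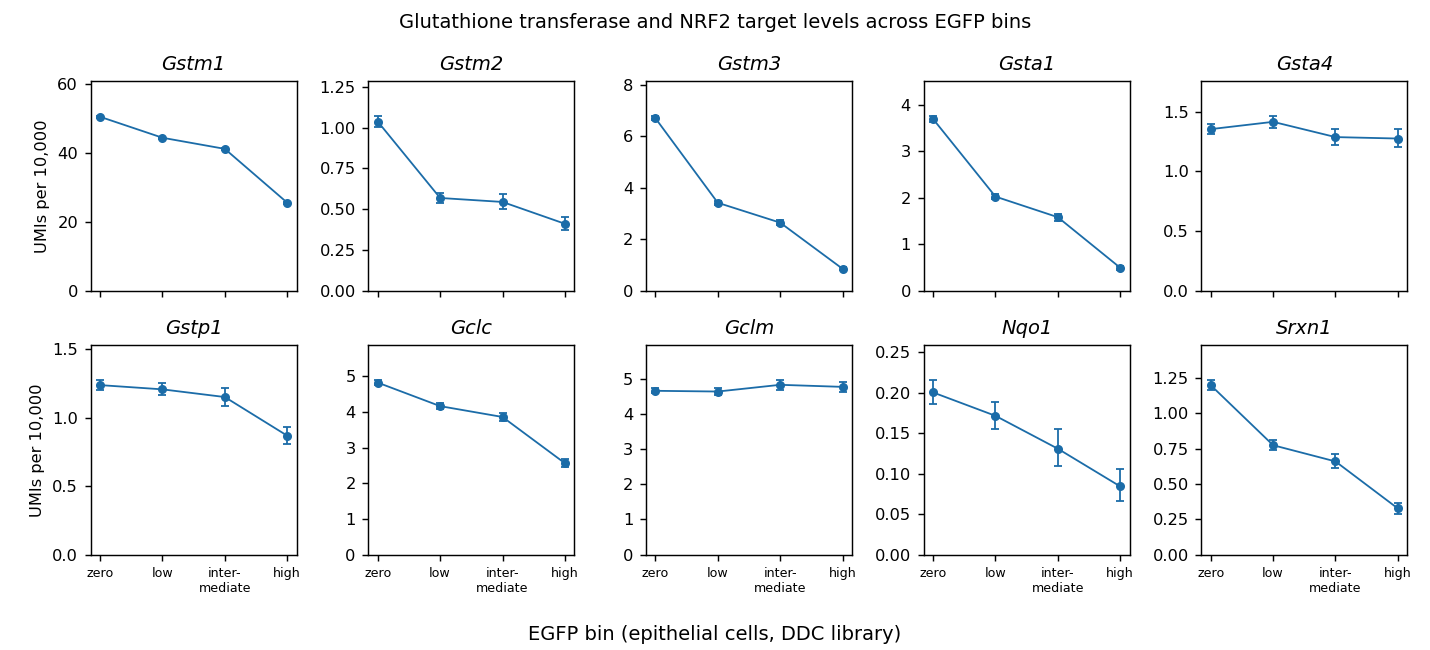
Level of each gene (UMIs per 10,000, linear axes from 0) in the 4 EGFP bins of the DDC library; points are pooled levels and bars 95% Poisson intervals. Gstm3 went from 6.70 to 0.850 and Gsta1 from 3.69 to 0.492, while Gclm stayed between 4.63 and 4.83 and Gsta4 between 1.27 and 1.41.

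The EGFP-high bin also had less hepatocyte RNA and more biliary RNA. All 8 hepatocyte markers were present in both bins, with summed levels of 267 in EGFP-high and 557 in EGFP-zero cells. The 9 biliary markers summed to 187 and 19.7. A list of 10 genes that make hepatocyte plasma and lipid-handling proteins had 5 called lower and a median log2 ratio of -1.11, next to the -1.12 of the 10 genes studied. The part of this in the lower levels was not tested. When the bins were drawn within Alb-high cells alone, the 5 calls stayed at 5, with log2 ratios of -2.70 for Gstm3 and -2.85 for Gsta1. The bins also differed in depth, with medians of 27690.5 UMIs in EGFP-zero and 50005 in EGFP-high cells. With each cell thinned to 2000 UMIs, which also gives every cell the same weight, 3 genes were called: Gstm3 (log2 ratio -2.44), Srxn1 (-2.06) and Gsta1 (-1.73). Gstm2 was then at -0.80 and Nqo1 at -0.52. Thinned, Gstm2 was lowest in the intermediate bin, at -1.54 against EGFP-zero cells, and a Gstm2 UMI was found in 16.3%, 8.09%, 6.61% and 10.2% of cells from the EGFP-zero to the EGFP-high bin. By the labels the reporter belongs to the treated mice alone, so the EGFP-zero bin can hold cells of both time points. An EGFP UMI was also seen in 21 of 297 macrophage-marker cells (7.07%).

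EGFP-intermediate cells were closer to the EGFP-zero cells, with which both comparisons are made. Gstm3 (log2 ratio -1.34) and Gsta1 (-1.22) were called lower, 2 of 10 beside 3.81% of all genes lower and 2.32% higher. Srxn1 (-0.86) and Gstm2 (-0.93) lay short of the call.

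The wider families leaned lower in EGFP-high cells, with genes called in both directions. Of all genes 7.05% were called lower and 11.5% higher in this comparison. Of 16 measured other transferases 3 were called lower and 2 higher, the list's median was -0.25, and 2 lay above the median of all genes. Gsta2 (0.582 against 2.22 UMIs per 10,000, log2 ratio -1.93) and Gstm4 (0.305 against 0.737, -1.27) were lower. Gstm5 (2.73 against 1.05, 1.37) and the microsomal Mgst2 (0.0596 against 0.0194, 1.62) were higher. Of 23 other NRF2 targets 3 were called lower and 1 higher, the list's median was -0.32, and 6 lay above the median of all genes. The cystine transporter gene Slc7a11 (log2 ratio -3.95, from 0.00562 against 0.0871 UMIs per 10,000), Ugdh of UDP-glucuronate synthesis (-1.87) and the efflux pump gene Abcc4 (-1.62) were lower, and the aldo-keto reductase gene Akr1b8 (2.57) was higher. None of 8 NRF2 regulators was called; Nfe2l2 itself stood at 2.35 in EGFP-high and 1.34 in EGFP-zero cells, a log2 ratio of 0.81.

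A small group of Alb-high cells with Defb1 RNA was high in several of the 10 genes. Defb1 encodes a beta-defensin, an antimicrobial peptide. In the DDC library 67 Alb-high cells had at least 5 Defb1 UMIs per 10,000, of which 58 were EGFP-zero and 46 Plet1-positive. Gsta1, Srxn1, Gclc and Gstm3 were called higher there than in the other 1819 Alb-high cells and none was called lower. These are 4 of 10, beside 2.15% of 11797 genes called higher and 6.98% called lower. The median log2 ratio was 0.74 over the 10 genes and -0.10 over all genes.

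Gsta1 stood at 8.37 UMIs per 10,000 in Defb1-high and 2.56 in the other Alb-high cells, a log2 ratio of 1.71 (1.63 to 1.78). Srxn1 stood at 2.60 and 0.908, a log2 ratio of 1.52 (1.38 to 1.66). Gclc stood at 9.96 and 4.28, a log2 ratio of 1.22 (1.15 to 1.29). Gstm3 stood at 10.03 and 4.82, a log2 ratio of 1.06 (0.99 to 1.13). The interval of Gstm3 reaches below the 2-fold line, whereas those of the other 3 lie above it. Gstm1 (74.0 against 46.5, log2 ratio 0.67), Gstm2 (1.25 against 0.783, 0.67) and Nqo1 (0.308 against 0.176, 0.81) differed in the same direction without reaching 2-fold. Gclm (4.82 against 4.71), Gsta4 (1.22 against 1.38) and Gstp1 (1.35 against 1.20) had intervals of the log2 ratio that include 0.

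The high levels were spread over the group. Over its 67 cells Gsta1 ran from 0 to 55.9 UMIs per 10,000 with a median of 5.45, and the cell with most Gsta1 UMIs held 19.4% of them. After thinning each cell to 2000 UMIs, a Gsta1 UMI was found in 70.1% of Defb1-high cells (57.7 to 80.7), in 30.01% of all Alb-high cells (27.9 to 32.1) and in 1.68% of macrophage-marker cells. Unthinned shares were 97.01%, 73.6% and 23.9%, at median depths of 20159, 38069.5 and 19419 UMIs. The Defb1-high cells were thus the shallower group and still had the larger share.

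Several other NRF2 targets were also high in these cells. Of 23 on the list 6 were called higher and 1 lower, beside 2.15% and 6.98% of all genes. The list median was 0.46, and 19 lay above the median of all genes. The carbonyl reductase gene Cbr3 stood at 0.722 against 0.175 (log2 ratio 2.04), Slc7a11 at 0.157 against 0.0483 (1.70), Abcc4 at 0.263 against 0.106 (1.32) and Ugdh at 7.40 against 3.26 (1.18). Among other transferases Gsta2 alone of 16 was called, at 4.90 against 1.75 (1.48), and the list's median was 0.03. Of 11 measured glutathione cycle genes 0 were called higher and 1 lower, with a list median of -0.02. None of the 8 regulators was called, and Nfe2l2 stood at 1.06 against 1.51. The 10 hepatocyte plasma protein genes had no call and a median of -0.11. Biliary markers summed to 10.1 in Defb1-high and 44.2 in the other Alb-high cells, with Krt19 and Cftr among those at 0. Hepatocyte markers summed to 518 and 553, and Cyp2e1 stood at 0.655 and 2.04.

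The mu gene differences and the Gclc call moved with the Defb1 level chosen. Within EGFP-zero cells alone 3 genes were called, and Gstm3 was at 0.56. At a Defb1 level of 10 or more, 12 cells, 2 genes were called. All 3 mu genes then had the lower level, with log2 ratios of -0.33 for Gstm1, -0.16 for Gstm2 and -0.16 for Gstm3, while Gclc was at 0.74 and Nqo1 at 0.05. At a level of 2 or more, 296 cells, 2 genes were called. Gsta1 and Srxn1 kept their calls in the 13 alternatives that left the 2-fold line in place, and Srxn1, at 2.87-fold, lost its call at 3-fold.

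The DDC and cMet library had 9 Alb-high cells at the same Defb1 level, too few for a call of their own. Their pooled levels were 147.5 UMIs per 10,000 for Gstm1 (34.01 in the other Alb-high cells), 21.5 for Gstm3 (2.66), 19.7 for Gsta1 (2.12), 14.6 for Gclc (2.15) and 6.05 for Srxn1 (0.462). Gstp1 stood at 54.0 against 15.9, and Gclm at 7.14 against 4.83. In these 9 cells all 10 genes had the higher level, with log2 ratios from 0.57 for Gclm to 3.71 for Srxn1. The share of all genes with the higher level was not counted here, so whether 10 of 10 is unusual is not known. No cell held more than 29.1% of the UMIs of any of the 10 genes. The median depth was 62079 UMIs in the 9 cells and 22890.5 in the others. Hepatocyte markers summed to 435 and 773, Alb stood at 202 and 412, and Cyp2e1 at 0.269 and 4.45. The part of depth and of these markers in the difference was not tested.

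Plet1 encodes a surface glycoprotein of epithelial cells. In the DDC and cMet library 375 Alb-high cells had at least 2 Plet1 UMIs and at least 1 per 10,000, and 3964 had none. Gsta1 and Srxn1 were called higher in Plet1-positive cells and none was called lower, 2 of 10 beside 13.1% of 12268 genes called higher and 4.28% called lower. Gsta1 stood at 3.70 against 1.81 UMIs per 10,000, a log2 ratio of 1.03 (0.99 to 1.08). Srxn1 stood at 0.808 against 0.404, 2.00-fold (log2 interval 0.90 to 1.10). Both lie at the line, and the share is near the background.

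The other members differed less. Gclc stood at 2.83 against 2.03 (log2 ratio 0.48), Gsta4 at 2.61 against 1.91 (0.45) and Gstp1 at 19.5 against 15.4 (0.34). Gstm3 was the lower one, at 2.12 against 2.75 (-0.38). Gstm1 (0.14), Gclm (0.08), Gstm2 (-0.01) and Nqo1 (-0.21) were near equal, and Gstm1 was at -0.21 as the mean over cells. All genes together had a median of 0.36, so that the median of the 10, 0.24, lay below it. Taken as the mean over cells instead of the pooled level, the log2 ratio was 0.41 for Gsta1 and 0.52 for Srxn1, and neither was called. Depth also differed, with medians of 32140 UMIs in Plet1-positive and 17417.5 in Plet1-negative cells, and with thinned cells 0 genes were called. Hepatocyte markers summed to 533 and 805 and biliary markers to 23.7 and 3.04, and their part was not tested.

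Among the other NRF2 targets 3 of 22 were called higher in Plet1-positive cells and 1 lower, near the 13.1% and 4.28% of all genes. Abcc4 stood at 0.115 against 0.0391 (log2 ratio 1.56), Cbr3 at 0.150 against 0.0589 (1.35) and the autophagy receptor gene Sqstm1 at 3.19 against 1.55 (1.05). Slc7a11 was the lower one, at 0.00500 against 0.0165 (-1.73). Of 18 other transferases Gstm5 (2.70 against 0.605, log2 ratio 2.16) and Mgst2 (2.34) were higher and Gstt3 (-1.18) was lower.

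Plet1 RNA was widespread in the DDC library, with 932 Alb-high cells positive and 523 at 0. There Gstm3 stood at 3.34 in positive and 7.59 in negative cells, a log2 ratio of -1.18, and Gstm2 at 0.591 and 1.13 (-0.93). Gsta1 (0.33), Srxn1 (0.27) and Gclc (0.25) were slightly higher in the positive cells. The Plet1 contrast thus had Gstm3 on the lower side and Gsta1 on the higher side in both libraries. With a single Plet1 UMI as the criterion, Gstm3 was at -0.04 in the DDC and cMet library. In the DDC library median depths were 43572.5 and 19023 UMIs in positive and negative cells. Hepatocyte markers summed there to 476 and 706 and biliary markers to 64.3 and 9.31. Cyp2e1 stood at 0.559 and 5.76 in the DDC library and at 0.904 and 5.17 in the other. The part of these differences was not tested.

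Cells with biliary markers were low in Gstm3 and Gstm1 in both libraries. Biliary-marker cells are epithelial cells with at least 2 UMIs per 10,000 over 7 biliary genes, among them Epcam, Krt7, Krt19 and Cftr, and 136 were found in the DDC library and 49 in the DDC and cMet library. Of these 88 and 36 were also Alb-high, so the group does not stand for mature bile duct cells. In the DDC library Gstm3 and Gstm1 were called lower than in the other Alb-high cells, 2 of 10 beside 6.24% of 12201 genes lower and 11.5% higher. In the DDC and cMet library Gsta1, Gstm3, Nqo1, Srxn1 and Gstm1 were called lower, 5 of 10 beside 8.37% of 12022 genes lower and 38.9% higher. No gene of the 10 was called higher in either.

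Gstm3 stood at 0.968 against 5.17 UMIs per 10,000 in the DDC library (log2 ratio -2.42) and at 0.354 against 2.75 in the DDC and cMet library (-2.96). Gstm1 stood at 23.7 against 48.3 (-1.03) and at 15.2 against 34.6 (-1.18). Gsta1 stood at 1.59 against 2.78 (-0.81) and at 0.280 against 2.20 (-2.97, from 34 UMIs). Both mu genes were lower in both libraries, and Gsta1 differed by a larger factor in the DDC and cMet library. With a stricter biliary level of 4 per 10,000, which left 43 cells in the DDC library, Gsta1 was at -3.02 there and 6 genes were called lower. Over the 133 deep biliary-marker cells of that library Gsta1 had a median of 0.171, a 90th percentile of 4.93 and a maximum of 32.8 UMIs per 10,000, so that its level differed widely among these cells.

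Srxn1 stood at 0.725 against 0.952 in the DDC library (-0.39) and at 0.157 against 0.486 in the DDC and cMet library (-1.63, from 19 UMIs). Nqo1 stood at 0.106 against 0.183 (-0.79) and at 0.0330 against 0.155 (-2.23, from 4 UMIs, interval -4.11 to -0.88). The interval of Nqo1 spans the call line. Gclc stood at 3.19 against 4.47 (-0.49) and at 1.31 against 2.20 (-0.75).

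Gsta4 and Gclm again differed little. Gsta4 stood at 1.34 against 1.38 in the DDC library (-0.04) and at 2.36 against 2.04 in the DDC and cMet library (0.21). Gclm stood at 4.30 against 4.75 (-0.14) and at 4.83 against 4.83. All genes together had medians of 0.28 and 0.74, and none of the 10 genes lay above them. Gstp1 stood at 0.889 against 1.21 (-0.45) and at 11.3 against 16.1 (-0.51), and Gstm2 at 0.502 against 0.818 (-0.70) and at 0.626 against 0.674 (-0.11). Hepatocyte markers summed to 257 against 564 in the DDC library and to 178 against 775 in the DDC and cMet library. Of the 10 hepatocyte plasma protein genes 6 and 9 were called lower, with medians of -1.19 and -2.12. Their part in the lower levels was not tested.

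In biliary-marker cells 8.37% of all genes were called lower and 38.9% higher in the DDC and cMet library. The DDC library had 6.24% lower and 11.5% higher. Of 18 other transferases measured in the DDC and cMet library 8 were called lower and 3 higher. Of 16 in the DDC library 3 were lower and 2 higher. Of the other NRF2 targets 2 of 21 were lower and 2 higher in the DDC and cMet library, and 1 of 23 was lower and 3 higher in the DDC library. Among those higher in the DDC and cMet library were Gstm5 (6.35 against 0.859, log2 ratio 2.89) and Mgst2 (0.124 against 0.00465, 4.73). The lower ones included Gstm4 (0.0659 against 0.544, -3.04) and Gstp2 (-2.03). The NRF2 regulators had 4 of 8 called higher in the DDC and cMet library, Maff (1.45), Nfe2l2 (1.44), Nfe2l1 (1.29) and Mafk (1.06), beside 38.9% of all genes. In the DDC library 1 of 8, Maff (1.07), was called higher, beside 11.5% of all genes. Both shares are near the background.

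**Figure D2:**
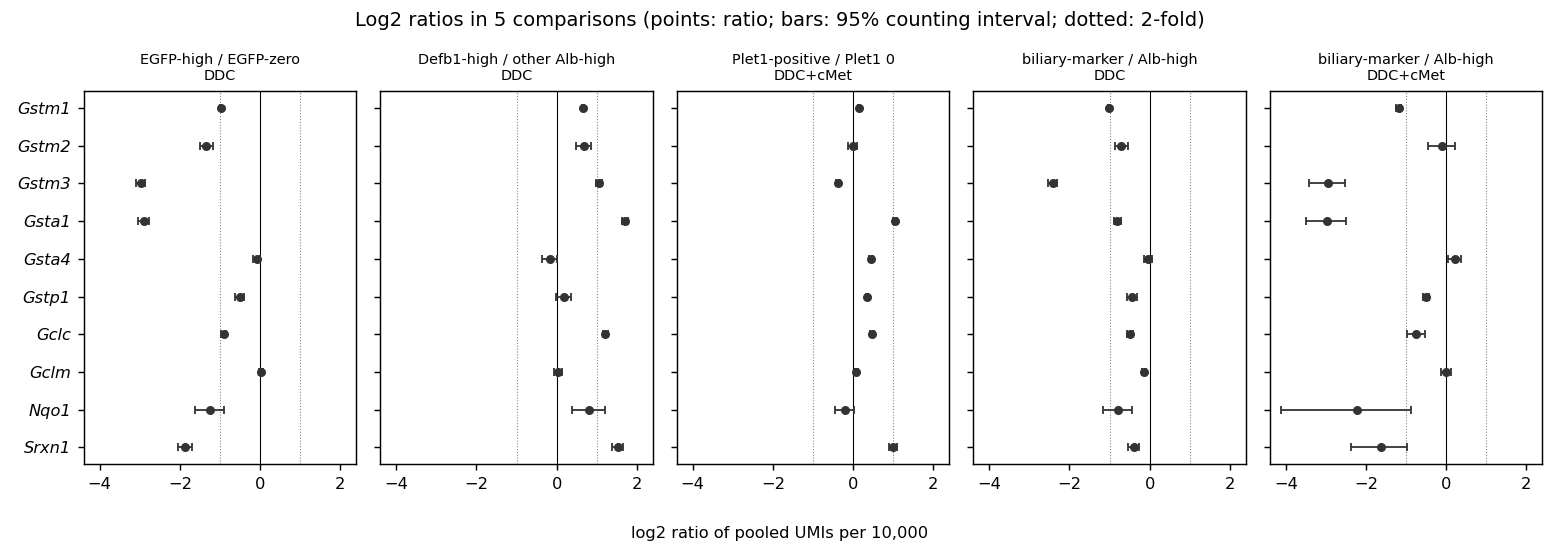
Log2 ratio of pooled levels for the 10 genes in 5 comparisons; points are ratios, bars 95% intervals for counting error, dotted lines 2-fold. Gstm3 is lower in EGFP-high (-2.98) and biliary-marker cells (-2.42 and -2.96) and higher in Defb1-high cells (1.06), while Gclm lies within -0.14 and 0.08 in all 5.

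Between the libraries Gstp1 stood apart from the other genes. In Alb-high cells Gstp1 stood at 16.1 UMIs per 10,000 (16.02 to 16.2) in the DDC and cMet library and 1.20 (1.18 to 1.23) in the DDC library, 13.4-fold higher. Gclc was called lower, at 2.20 against 4.43 (log2 ratio -1.01, -1.04 to -0.99). These are 1 higher and 1 lower of 10, beside 5.83% of 13434 genes called higher and 12.6% lower. All genes together had a median of -0.29.

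The Gstp1 difference held cell by cell. Of 1560 Alb-high cells of the DDC library with at least 10000 UMIs, 1560 were under 5 Gstp1 UMIs per 10,000, and the highest was 4.79. Of 3091 such cells of the DDC and cMet library 267 (8.64%) were under 5, and 2341 (75.7%) were at 8 or more. The medians were 1.08 and 13.1. The ranges overlapped only at the low end. By their labels both libraries hold cells of untreated WT mice. Thinned to 2000 UMIs, 20.5% of Alb-high cells of the DDC library and 88.4% of the other had a Gstp1 UMI, against 2.69% and 17.7% of macrophage-marker cells. Unthinned, these shares were 83.0%, 98.1%, 17.5% and 69.1%, at median depths of 38069.5, 22951, 19419 and 13296.5 UMIs.

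The close copies of Gstp1 differed the same way. Gstp2 stood at 0.234 against 0.00518 (log2 ratio 5.50) and Gstp3 at 4.39 against 1.38 (1.67). Because the division of reads among the copies is uncertain, these are no separate evidence beside Gstp1. The cause of the Gstp1 difference between the libraries was not tested.

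**Figure D3:**
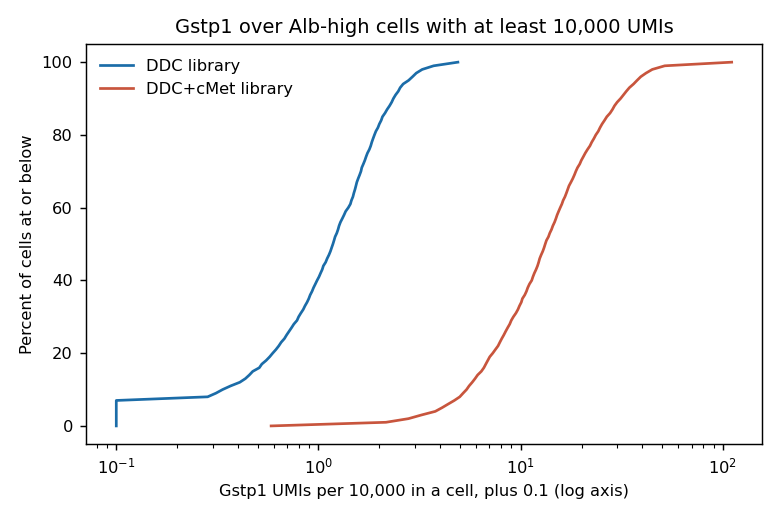
Cumulative share of Alb-high cells with at least 10000 UMIs by Gstp1 level (UMIs per 10,000 plus 0.1, log axis), 1560 cells of the DDC library and 3091 of the DDC and cMet library. The DDC cells end at 4.79 and the median of the other library is 13.1.

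The remaining members were nearer between libraries. Srxn1 stood at 0.484 in the DDC and cMet library and 0.951 in the DDC library (log2 ratio -0.98), and Gstm3 at 2.73 and 4.95 (-0.86). Gstm1 stood at 34.5 and 47.2 (-0.46), Gsta1 at 2.19 and 2.71 (-0.31), Gstm2 at 0.674 and 0.795 (-0.24) and Nqo1 at 0.154 and 0.179 (-0.22). Gsta4 was the other one on the higher side, at 2.04 and 1.37 (0.58). Gclm stayed level, at 4.83 and 4.71 (0.04). Gclc kept its call in 7 of 11 alternatives, with values from -1.18 to -0.90.

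Between the libraries 12.6% of all genes were called lower in the DDC and cMet library and 5.83% higher. Of 23 other NRF2 targets 8 were called lower there and 0 higher, with a median of -0.54. The pentose phosphate enzymes G6pdx (log2 ratio -2.09) and Pgd (-1.87) were among them, as were Akr1b8 (-1.76) and Slc7a11 (-1.74). Of the glutathione cycle 3 of 11 measured genes were lower and 0 higher. Of 19 measured other transferases 2 were called higher and 2 lower. Their median was 0.33, and 14 lay above the median of all genes. None of the regulators was called, Nfe2l2 standing at 0.911 and 1.496.

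Gstm2 and Gstm3 differed most with the balance of a pair of zonation genes. Cyp2e1 is known as a pericentral and Cyp2f2 as a periportal hepatocyte gene, and Alb-high cells with at least 10 UMIs of the pair were put into 3 groups by the share of Cyp2e1. From the lowest to the highest share Gstm2 stood at 0.628, 0.801 and 2.20 UMIs per 10,000 in the DDC library and at 0.243, 0.572 and 1.19 in the other. Gstm3 stood at 5.68, 6.62 and 11.2, and at 1.07, 2.79 and 4.24. Both were highest in the group with most Cyp2e1 in both libraries, with log2 ratios of 1.81 and 2.29 for Gstm2 and 0.98 and 1.98 for Gstm3.

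Gstm1 had smaller steps, from 50.6 to 58.5 and from 21.6 to 37.8 (log2 ratios 0.21 and 0.81). Nqo1 went from 0.192 to 0.2499 and from 0.0875 to 0.197 (0.38 and 1.17), larger ratios than those of Gstm1. In the DDC and cMet library Srxn1 (0.53), Gsta4 (0.46), Gsta1 (0.41) and Gclm (0.23) were higher too. Gsta1 and Gsta4 were highest there in the middle group, at 2.43 and 2.08. In the DDC library Gsta1 (0.31) and Gclm (0.13) were higher, Gsta4 (0.05) was level and Srxn1 (-0.16, -0.29 to -0.02) was lower. Gstp1 fell with the Cyp2e1 share in the DDC and cMet library, from 19.4 to 13.04 (-0.57), and was level in the DDC library, at 1.19 and 1.18. Gclc was lower in the group with most Cyp2e1 in both libraries (-0.41 and -0.20). Injury-related RNA moved with the groups as well: from the lowest to the highest share Spp1 went from 14.8 to 2.30, Sox9 from 0.798 to 0.348 and EGFP from 0.377 to 0.102 in the DDC library. In the other library Spp1 went from 3.09 to 1.37. Their part in the differences was not tested, and position cannot be told apart from injury here. Cyp2e1 itself was low in EGFP-high cells, at 0.0899 against 3.25 in EGFP-zero cells, and its part in the lower mu gene levels there was not tested.

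**Figure D4:**
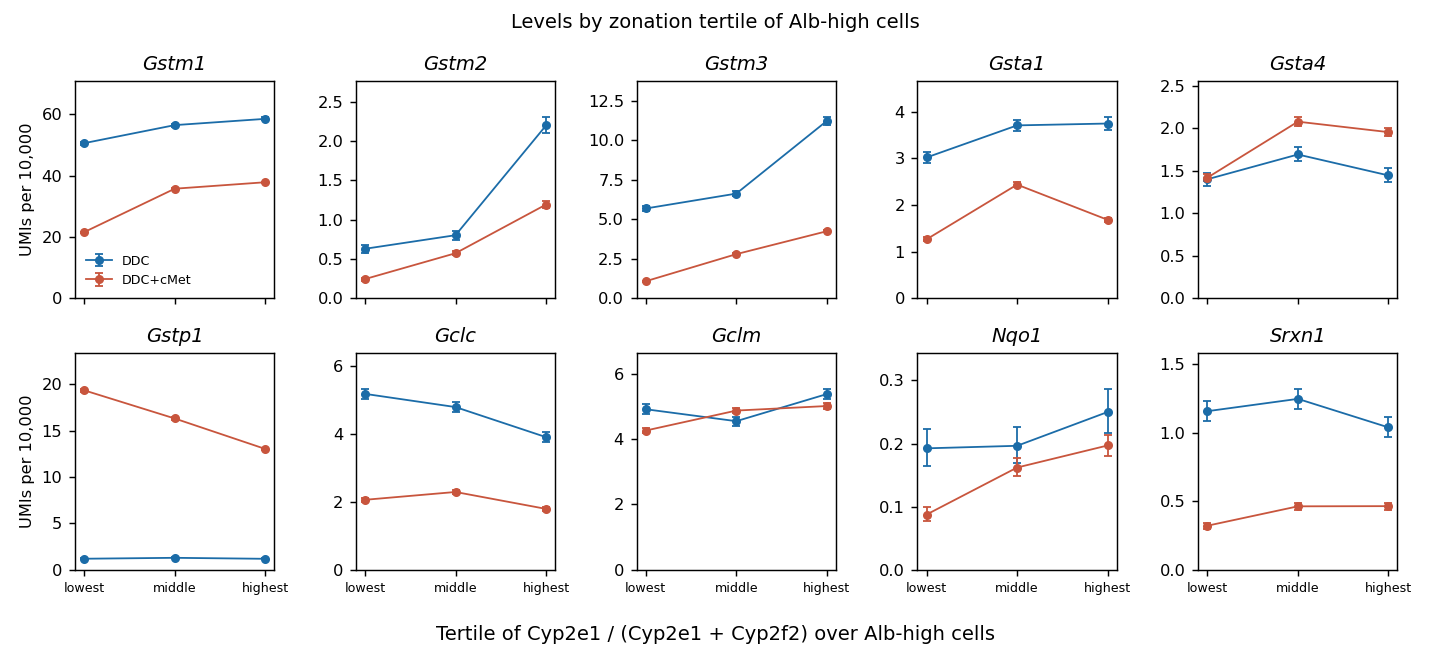
Levels (UMIs per 10,000, linear axes from 0) in 3 groups of Alb-high cells by Cyp2e1 share, with 95% Poisson intervals, for the DDC (blue) and the DDC and cMet library (red). Gstm2 and Gstm3 are highest in the group with the highest share in both, whereas Gstp1 goes from 19.4 to 13.04 in the DDC and cMet library.

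To part genes of hepatocytes from genes shared with other cells, levels in macrophage-marker and endothelial-marker cells were set against carried hepatocyte RNA. For the DDC library, 10 hepatocyte plasma protein genes stood at a median of 7.45% of their Alb-high level in macrophage-marker cells and 7.88% in endothelial-marker cells. The DDC and cMet library gave 5.34% and 5.91%. A gene counts as shared when the lower bound of its level is over 3 times this carried share. A gene shared with neither class is called hepatocyte-only, a term that leaves biliary-marker cells out. In those cells the carried share was 45.1% in the DDC library and 23.2% in the other. By the same line biliary-marker cells of the DDC and cMet library shared Gsta4 (115% of its Alb-high level), Gclm (99.9%) and Gstm2 (92.9%), and those of the DDC library shared none. The macrophage-marker cells numbered 297 and 1006 and the endothelial-marker cells 54 and 237.

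Gstm1, Gstm3, Gsta1, Gsta4 and Gstp1 were hepatocyte-only in both libraries. In macrophage-marker cells Gsta1 stood at 5.89% and 5.45% of its Alb-high level, and Gstm3 at 8.91% and 5.65%, close to the carried share. Gstm1 stood at 13.5% and 8.56%, Gsta4 at 14.3% and 7.37% and Gstp1 at 17.9% and 6.75%. The last 3 lie above the carried share but within 3 times of it. Nqo1 and Gclc were shared in the DDC and cMet library alone, and by the rule counted as hepatocyte-only in the DDC library. In the 54 endothelial-marker cells of the DDC library Nqo1 stood at 8.33 times the carried level, from 5 UMIs. Gclc stood there at 2.97 times, from 44 UMIs, and Gsta4 at 2.83 times, from 13 UMIs. These counts do not settle on which side of the line any of these genes lies in those cells. In endothelial-marker cells of the DDC and cMet library Gstp1 stood at 13.7% of its Alb-high level, 2.32 times the carried level.

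Gstm2, Gclm and Srxn1 were shared in both libraries. In endothelial-marker cells Gstm2 stood at 0.871 UMIs per 10,000 (0.613 to 1.20) in the DDC library and at 1.003 (0.881 to 1.14) in the other, 110% and 149% of the Alb-high level, whereas macrophage-marker cells had 13.7% and 8.94%. Among the mu genes Gstm2 was thus the one found at full level outside hepatocytes. Nqo1 also reached 110% in endothelial-marker cells of the DDC and cMet library, from 41 UMIs, and 65.7% in the DDC library, from 5 UMIs.

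Gclm stood at 29.9% and 22.1% of its Alb-high level in macrophage-marker cells and at 34.9% and 24.5% in endothelial-marker cells. Srxn1 stood at 34.2% and 54.9% in macrophage-marker cells, where its level was 0.326 and 0.266 UMIs per 10,000. Gclc reached 20.3% and 29.6% in macrophage-marker cells. Gclm was thus above the line in both cell classes of both libraries, and Srxn1 in macrophage-marker cells of both, whereas Gclc was above it in the DDC and cMet library alone. With 2 times the carried share as the line, Gstm1, Gstm3, Gsta1 and Gsta4 were hepatocyte-only in both libraries and Gstp1 in neither. With cells of at least 10000 UMIs alone, Gstm2 also became hepatocyte-only in the DDC library, whose endothelial-marker cells had a median of 6528.5 UMIs. With the carried share taken from Alb alone, Gstp1 and Gclc became shared in the DDC library.

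**Figure D5:**
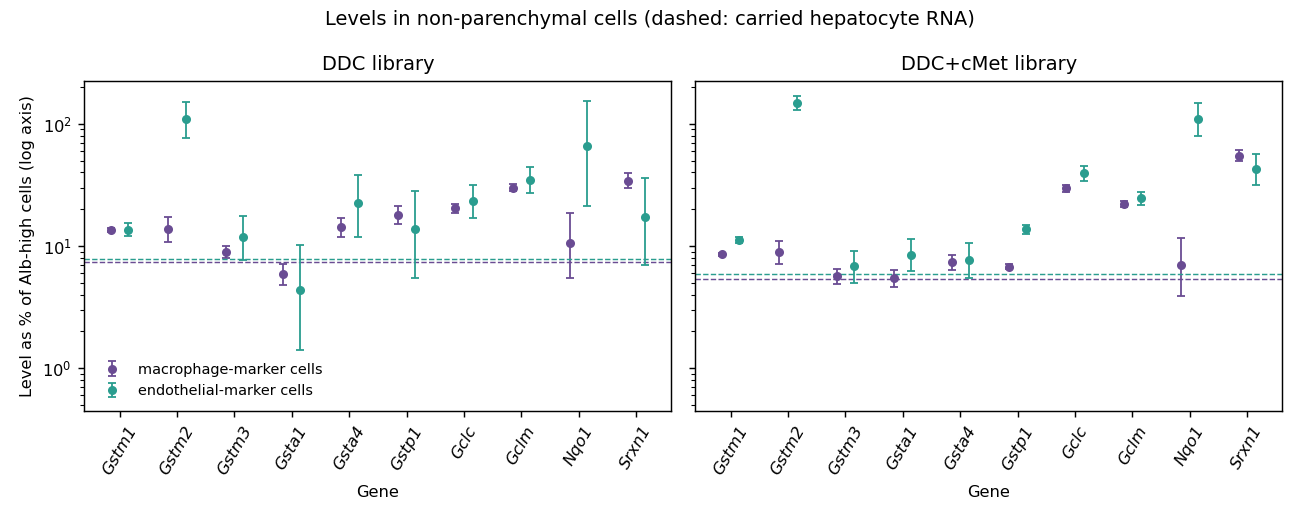
Level of each gene in macrophage-marker and endothelial-marker cells as a percentage of its level in Alb-high cells (log axis), with 95% Poisson intervals of the non-parenchymal level; dashed lines mark carried hepatocyte RNA. Gstm2 in endothelial-marker cells lies at 110% and 149%, and Gsta1 in macrophage-marker cells at 5.89% and 5.45%, close to the lines.

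Over single Alb-high cells with at least 10000 UMIs, Gstm1 and Gstm3 went together most closely of the 45 pairs, with Pearson r of 0.71 over 1560 cells of the DDC library and 0.73 over 3091 of the other. Gstm2 and Gstm3 had r of 0.62 and 0.68, and Gsta1 and Srxn1 0.53 and 0.48. Gclc and Gclm, whose products form 1 enzyme, had r of 0.31 and 0.24. Gstp1 had r from 0.07 to 0.28 with the other genes in the DDC library. These values describe cells that share a library and differ in depth.

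Over 33 cell groups of both libraries, which overlap and share cells, the genes with the most similar levels were found by Pearson r among 11644 genes. Srxn1 was most like Defb1 (0.94) and Gclc (0.93), although some of the groups were chosen by Defb1 level, which favours this match. Gsta1 was most like Gm3776 (0.97) and Ugdh (0.97). Gstm2 had Nqo1 among its nearest 3 (0.90), and Gstm3 had Ugdh (0.96). The genes nearest to Gstp1 were Per2 (0.98), a gene of the circadian clock, Akr1c19 (0.97) and Omd (0.97). Because Gstp1 differed strongly between the libraries, its matches favour genes that also differ between them. Gclm was nearest to Hadh (0.99), Gsta4 to Cryz (0.98), Gclc to Ghitm (0.97) and Gstm1 to Smlr1 (0.99).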

How the data were processed

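The authors deposited counts: whole UMI counts per gene and barcode for 2 libraries, not normalized, beside text lists of genes and barcodes (other). Cell Ranger 5.0.1 wrote the matrices, per the file headers. Seurat 4.0.1, Cell Ranger 6.0.1 and mm10 appear in the submitters' processing notes, and which Cell Ranger made the counts was not settled. The choice of barcodes for deposit was not given in the sources used here. Each library has 1 reporter feature, EGFP or tdTomato, and tdTomato had only 2 UMIs.

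Counts were summed over the cells of a class and scaled to 10,000 UMIs. Intervals were exact Poisson for sums, Clopper-Pearson for shares and exact conditional binomial for ratios, at 95%, and cover counting error only. Where a group had 0 UMIs, the ratio took 3 UMIs over that group as its floor, and where that floor lay above the other group the gene counted as not measured. Non-parenchymal levels were sums of marker UMIs per 10,000: macrophage 10, endothelial 5, T or NK cell 5, B cell 5, neutrophil 50 and stellate 10. A non-parenchymal class needed exactly 1 list over its level and Alb under 50. Other cells over a level were mixed and left out (453 and 1747 cells). No doublet caller was used; leaving out mixed cells and, as an alternative, the 5% of cells with the most UMIs stood in for it.

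The 10 genes and all lists were chosen with earlier results of these data known. All 10 genes were named, with up to 4 called genes of each other list per comparison (largest log2 ratio) and, for likeness, the 3 genes with the highest r of log2(level + 0.1) among genes with at least 500 UMIs over classes of at least 50 cells. The rule for groups at 0, the marker requirement of 5 UMIs and the comparisons within EGFP-zero, within Alb-high and without biliary-marker or Plet1-carrying cells were chosen after seeing the data. Alternatives were the cell filter, depth, thinning, the mean over cells, class levels, scaling, shared barcodes and the fold. The ratio was tested on simulated data. Scripts ran under Python 3.11.15 with pandas 2.3.3, scipy 1.17.1, matplotlib 3.10.9 and numpy 2.4.6.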

Additional observations from a re-analysis of the deposited data

How the results depend on the processing

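Of 829 recomputed log2 ratios of the 10 genes 549 moved by less than the counting interval, 279 moved by more, and 1 called value changed direction (Gstm3 in Defb1-high cells, -0.16 at a Defb1 level of 10 or more). With values that were not called, 32 changed sign, among them Gstm1 (0.67 to -0.33) and Gstm2 (0.67 to -0.16) at that Defb1 level and Gstm1 in Plet1-positive cells (0.14 to -0.21 as the mean over cells). Of 116 recomputed counts of called genes 87 stayed within 1.5 times the reported one. EGFP-high against EGFP-zero went from 5 called genes to 3 with thinned cells and 3 at 3-fold. EGFP-intermediate went from 2 to 4 without the 5% of cells with the most UMIs, 5 at 1.5-fold and 0 at 3-fold. Defb1-high went from 4 to 7 at 1.5-fold, 1 at 3-fold, and 2 at Defb1 levels of 2 and of 10. Plet1-positive went from 2 to 1 under the stricter cell filter, 1 without shared barcodes and 1, on the lower side, without the 5% of cells with the most UMIs. It went to 0 as the mean over cells, with thinned cells, at an Alb level of 25, under scaling without mitochondrial and secreted hepatocyte genes, at 3-fold and with a single Plet1 UMI as the criterion. Biliary-marker cells of the DDC library went from 2 to 1 at an Alb level of 25, 5 at 1.5-fold, 1 at 3-fold and 6 at the stricter biliary level. The libraries went from 2 to 1 with at least 10000 UMIs, at an Alb level of 25, under the other scaling and at 3-fold, and to 4 at an Alb level of 100 and at 1.5-fold. Hepatocyte-only genes of the DDC library went from 7 to 4 at 2 times carried RNA. Nqo1 gave no value in thinned biliary-marker cells of the DDC and cMet library, where it had 0 UMIs. The cause of these changes was not tested, except that a change of the fold acts on the call alone. No paired analysis was possible because each condition has 1 library. Low counts limit Nqo1, and classes under 50 cells allow no firm level.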

Other observations

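Only 2 tdTomato UMIs, in 2 Alb-high cells, were counted in the DDC and cMet library, and no gene was described by that reporter. Hmox1, a haem-degrading NRF2 target that macrophages also carry, stood at 13.4 UMIs per 10,000 in macrophage-marker cells of the DDC library and 16.8 in those of the other, against 0.247 and 0.260 in Alb-high cells. In Alb-high cells Hmox1 differed little between the libraries (log2 ratio 0.07), unlike Gclc and Srxn1.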
